A study of Mus musculus with 162 samples.

Results

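The 10 genes described here encode peptide precursors and receptors of the spinal itch circuit: Grp, Nmb, Tac2, Penk and Pdyn are precursors, and Grpr, Nmbr, Npr1, Tacr1 and Oprk1 are receptors. They were chosen by name from 46078 genes listed for each library, through the mouse symbols of their Ensembl identifiers, and all 10 were found. The study sequenced RNA from skin, trigeminal ganglion (TG) and spinal cord after topical MC903, a vitamin D analog that produces an atopic dermatitis-like itch, or its ethanol vehicle. Of the 162 libraries, 27 were of spinal cord and 56 of TG were used here. Skin, with 70 libraries, and 9 TG libraries of wild-type mice at day 12 were not used here.

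All mice were adult C57BL/6 males treated once a day with 0.2 mM MC903 in ethanol or with ethanol alone. Spinal cord was taken at day 8 from wild-type mice treated on the back, at thoracic level by the study's methods, in 3 injection conditions: no injection (4 MC903, 5 ethanol), PBS (2 and 2) and aGr1 (8 and 6). The last is 250 µg of an antibody against Gr1, which depletes neutrophils, and PBS is its vehicle. Both were injected daily into the peritoneum. TG came from mice treated on the cheek: uninjected wild-type at day 1 (4 MC903, 4 ethanol), day 2 (3 and 2), day 5 (3 and 3) and day 8 (5 and 5), wild-type at day 8 given PBS (4 and 3) or aGr1 (4 and 4), and TSLPR.KO, which lack the receptor for the cytokine TSLP (gene Crlf2) in all cells, at day 8 (2 and 2) and day 12 (4 and 4). By the study's methods, day 1 was 6 hours after the first treatment. Each library held between 15931871 and 62105901 counts on genes.

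In the dorsal horn, itch-selective afferents release peptides and glutamate onto interneurons, and a relay of excitatory interneurons carries the signal to projection neurons that ascend to the brain. Gastrin-releasing peptide and its receptor form the best known step of that relay, and the natriuretic peptide receptor and the neuromedin B receptor lie beside it. Dynorphin, acting on kappa opioid receptors, is an opioid brake of the same circuit, and enkephalin acts on mu and delta opioid receptors.

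The opioid precursors differ in how many peptides they carry. Their units are given as background to the test below, which Penk passed and Pdyn did not. No link between the units and that test was examined. The coding sequences are from GENCODE M21 (GRCm38, the same build as the mm10 used by the study). In each line the capitals mark the opioid core, the codons that open the enkephalins and dynorphins, and 9 coding bases are shown on each side. The core was searched in frame on the coding strand, with any base allowed at codon positions that vary. That pattern also lets in leucine codons at its last place. The pattern occurred in 87 of 21584 coding sequences searched (0.403%). Penk, on the minus strand of chr4:4133531-4138819, held 7 such units in a coding sequence of 807 bases, from chr4:4134328-4134357 for the first to chr4:4133842-4133871 for the last, and the flanks of the first pair overlap.
Penk unit 1: gccaagaagTACGGAGGCTTCatgaaacgg
Penk unit 2: atgaaacggTACGGAGGCTTCatgaagaag
Penk unit 3: gccaagaggTATGGCGGCTTCatgaagaag
Penk unit 4: agcaagaggTATGGGGGCTTCatgagaagc
Penk unit 5: cagaagcgcTACGGGGGCTTCatgagaagg
Penk unit 6: cagaagaggTATGGGGGCTTCctgaagcgc
Penk unit 7: gagaaaagaTACGGGGGCTTTatgcggttc
The codon after the core is atg in 6 of the Penk units and ctg in 1, the codons of Met-enkephalin and Leu-enkephalin.

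Pdyn, on the minus strand of chr2:129686565-129699844, held 3 units in 747 coding bases, of which those at chr2:129688232-129688261 and chr2:129688067-129688096 are shown.
Pdyn unit 1: gccaaacgcTATGGCGGCTTTttgcgcaaa
Pdyn unit 3: cagaagcgcTATGGTGGTTTCctgcggcgt
None of the 3 Pdyn cores is followed by atg.

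The other precursors shown carry 1 unit each. Tac2, the mouse precursor of neurokinin B (plus strand, chr10:127724478-127731768), held the tachykinin end, searched in the same way, at chr10:127729122-127729154 (capitals), found in 24 coding sequences (0.111%). Nmb, the precursor of neuromedin B (minus strand, chr7:80902227-80905076), held the neuromedin B end across an exon junction, and no other coding sequence did (0.00463% of all). It is shown because Nmb was the member that passed the test in TG.
Tac2 unit 1: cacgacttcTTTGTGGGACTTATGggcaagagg
Nmb unit 1: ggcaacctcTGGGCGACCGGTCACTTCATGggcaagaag
Both are followed by ggc, the glycine codon that marks an amidated peptide end.

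Some libraries stood apart before any comparison. In spinal cord, uninjected ethanol replicate 1 deviated from its group by 0.436 log2 units (root mean square over genes), against at most 0.293 in the other 26 cord libraries, so results of the uninjected group are given with and without it. In TG, MC903 replicates 1 of day 1 and of day 5 deviated most (0.627 and 0.475), followed by ethanol cohort B replicate 2 of day 8 (0.449). The last, labelled wild-type, held 4 counts of Crlf2 (0.117 cpm, where cpm is a gene's count scaled to a common library total over genes), whereas the other wild-type TG libraries held 1.15 cpm or more. Ethanol replicate 1 of day 1 (0.342) was far above its group in several members, as described below. Crlf2 lay at 0 to 0.228 cpm in TSLPR.KO at day 8 and at 0.907 to 2.06 cpm in TSLPR.KO at day 12, so the counts did not fall to 0 in the latter. Thoracic-level Hox genes went with the tissue labels, with sums of 313 to 398.5 cpm in cord and at most 6.64 cpm in TG. Sensory ganglion neuron markers did too, with sums of 1150 cpm or more in TG and at most 571 cpm in cord. Motor neuron markers did not separate cord in this way, since they summed to 536 to 1967 cpm in TG and 230 to 472 cpm in cord. That list shares Isl1 and Prph with the sensory list. No pair of replicates held identical counts.

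Penk, the enkephalin precursor, was the member that rose most firmly in spinal cord. In uninjected mice its level was 139.2, 141.3, 139.5 and 137.0 cpm in the MC903 libraries, and 70.2, 110.5, 102.2, 109.6 and 113.9 cpm in the ethanol libraries. Every MC903 library was above every ethanol library. The fitted log2 fold change (edgeR quasi-likelihood F test, TMM scaling, Benjamini-Hochberg adjustment over 25585 genes) was +0.47 ± 0.10 (SE), 1.38-fold, with an adjusted p of 0.0059. Without ethanol replicate 1 it was +0.38 ± 0.06 (adjusted p = 0.00022). As in any bulk tissue, a larger number of expressing cells and more RNA per cell cannot be told apart.

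In aGr1-injected mice Penk was again higher with MC903. The 8 MC903 libraries ran from 114.1 cpm through a median of 133.3 to 165.6 cpm, and the 6 ethanol libraries from 96.2 through 111.1 to 121.2 cpm. The groups overlapped, with 7 of 8 MC903 libraries above the highest ethanol library, and the log2 fold change was +0.32 ± 0.07 (1.25-fold, adjusted p = 0.0070). The names under which the counts of this condition were deposited, unlike the library titles, carry letter codes with a gap. The ethanol replicates 1 to 3 and MC903 replicate 1 (codes A to J) were lower in Penk than the rest. Among codes L to U, Penk ran from 126.5 to 165.6 cpm in 7 MC903 libraries and from 117.3 to 121.2 cpm in 3 ethanol libraries, and among codes A to J it was 114.1 cpm in the MC903 library and 96.2 to 105.0 cpm in the ethanol libraries. The groups did not overlap within either range of codes. What the codes stand for is not given in the sources used here. With a term for the codes the log2 fold change was +0.22 ± 0.06 (adjusted p = 0.025), and in codes L to U alone it was +0.23 ± 0.08 and did not pass (adjusted p = 0.12).

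In PBS-injected mice Penk was 123.2 and 98.6 cpm with MC903 and 83.6 and 93.4 cpm with ethanol. The groups did not overlap, but the log2 fold change of +0.29 ± 0.14 did not pass the test (adjusted p = 0.83). Without MC903 replicate 2 the log2 fold changes were +0.40 ± 0.10 for Penk, +0.55 ± 0.14 for Tac2 and +0.41 ± 0.16 for Pdyn. That fit rests on 1 MC903 library, whose spread is taken from the ethanol pair, so it cannot decide whether Penk differed. With injection as a term over all 27 cord libraries, a fit chosen after seeing the data that shares libraries with those above, Penk was higher in MC903 by +0.36 ± 0.06 (1.28-fold, adjusted p = 1.28e-05) and by +0.33 ± 0.05 without the library that stood apart.

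Among the 10 members, 2 were called in uninjected mice, Penk higher and Npr1 lower, 0 in PBS and 1 in aGr1, Penk higher. The share of all genes called was 12.2% in uninjected mice, 0% in PBS and 11.3% in aGr1, so the number of members called is near that of genes at large in the groups where any gene was called. In PBS edgeR called 0 of 24573 genes, with 1571 at an unadjusted p under 0.05, and DESeq2 called 168. No member was among either. The median log2 fold change of the members was -0.09 in uninjected mice, 0.11 in PBS and 0.14 in aGr1, against 0.01, 0.00 and 0.01 over all genes tested. Groups did not overlap for 2 members in uninjected mice (Penk and Oprk1, both higher), for 2 in PBS (Penk higher, Grpr lower) and for none in aGr1, where this held for 15.3%, 36.5% and 4.28% of all genes. Over all injections, 1 member was called, against 21.2% of genes.

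**Figure D1:**
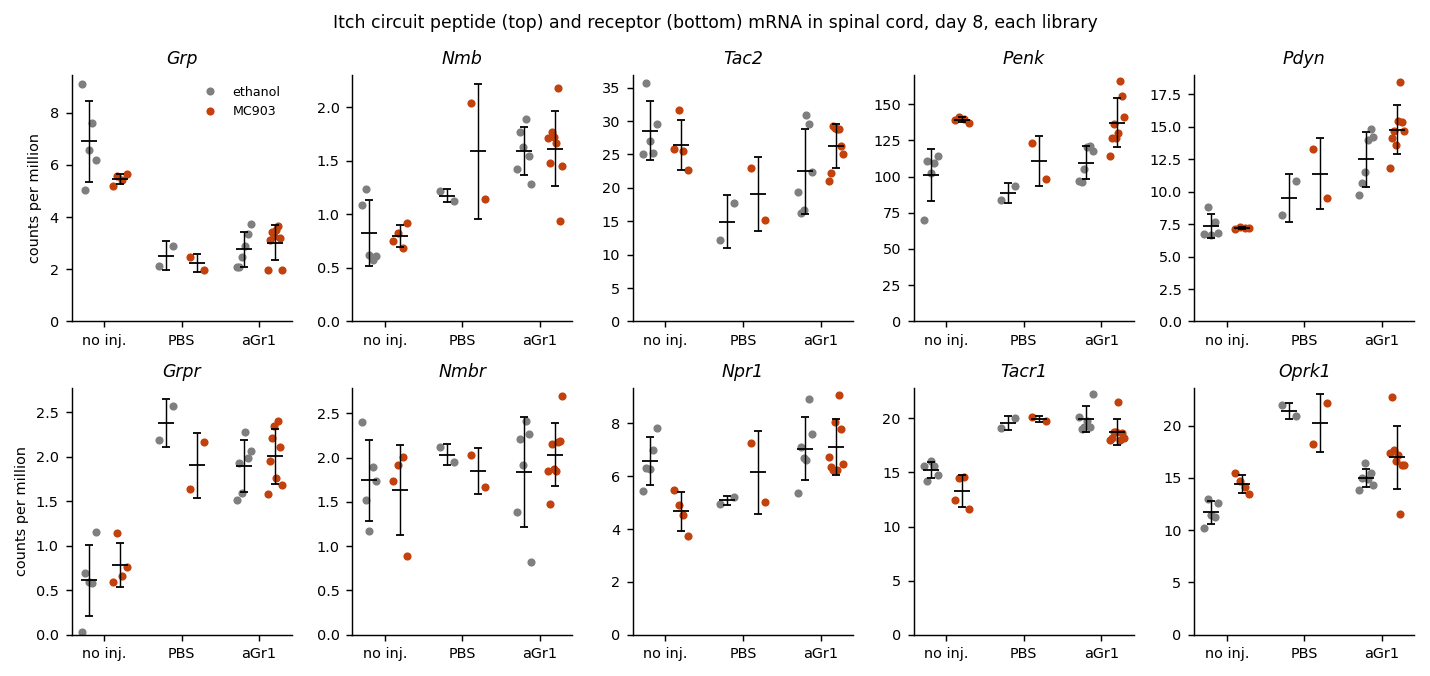
Each panel gives 1 gene in spinal cord at day 8: the vertical axis is its level in cpm, each point is a library (grey ethanol, orange MC903), and the bars are the mean and SD. The 4 uninjected MC903 libraries of Penk lie between 137.0 and 141.3 cpm, above all 5 ethanol libraries, while for Nmb, Nmbr, Grp and Pdyn the orange and grey points overlap in every condition.

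Pdyn, the dynorphin precursor, did not differ in uninjected mice. Its levels were 7.15, 7.27, 7.19 and 7.19 cpm with MC903 and 6.78, 8.79, 6.64, 7.67 and 6.85 cpm with ethanol. The MC903 libraries lay inside the ethanol range, and the log2 fold change of -0.03 had a 95% interval from -0.29 to 0.23. In aGr1 mice Pdyn ran from 11.85 through 14.7 to 18.4 cpm with MC903 and from 9.77 through 12.8 to 14.8 cpm with ethanol, with a difference of +0.24 ± 0.10 that missed the threshold (adjusted p = 0.12) and was +0.10 ± 0.07 with the term for the letter codes. In PBS mice it was 13.3 and 9.49 cpm against 8.23 and 10.8 cpm, which overlapped.

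Tac2, the neurokinin B precursor, was not called in any condition. In uninjected mice it was 25.8, 31.6, 25.5 and 22.6 cpm with MC903 and 25.1, 35.7, 27, 25.2 and 29.6 cpm with ethanol (log2 fold change -0.12, 95% interval -0.36 to 0.12). In aGr1 mice it ran from 21.03 through 27.5 to 29.3 cpm with MC903 and from 16.2 through 20.9 to 30.9 cpm with ethanol (+0.22 ± 0.13, adjusted p = 0.31). Here too the letter codes went with the level: ethanol libraries of codes A to J lay at 16.2 to 19.4 cpm and those of codes L to U at 22.4 to 30.9 cpm, and with the term for the codes the log2 fold change was +0.05 ± 0.09. In PBS mice Tac2 was 23.01 and 15.2 cpm against 12.2 and 17.7 cpm.

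Grp, the precursor of gastrin-releasing peptide (chromosome 18), had a lower estimate with MC903 in uninjected mice that did not pass. The MC903 libraries held 5.205, 5.55, 5.42 and 5.64 cpm and the ethanol libraries 9.10, 5.03, 6.57, 7.59 and 6.18 cpm. The MC903 values lay close together at the low end of the ethanol range, and the log2 fold change was -0.35 ± 0.18 (adjusted p = 0.26). The highest value was in the library that stood apart, without which the log2 fold change was -0.18 ± 0.14. In aGr1 mice Grp ran from 1.97 through 3.23 to 3.66 cpm against 2.07 through 2.67 to 3.73 cpm (+0.13 ± 0.16), and in PBS mice it was 2.46 and 1.98 cpm against 2.12 and 2.91 cpm.

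Nmb, the neuromedin B precursor, was low in cord, with 15 to 60 counts per library. It lay at 0.690 to 0.918 cpm with MC903 and 0.578 to 1.23 cpm with ethanol in uninjected mice. The 95% intervals of its log2 fold changes ran from -0.77 to 0.64 in uninjected mice, -0.40 to 1.17 in PBS and -0.29 to 0.32 in aGr1. Differences within those bounds are compatible with the data.

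Npr1, the receptor through which natriuretic peptides signal (minus strand, chr3:90450591-90465866), was lower with MC903 in uninjected mice. The MC903 libraries held 5.49, 4.92, 4.53 and 3.74 cpm and the ethanol libraries 5.43, 6.32, 6.26, 6.98 and 7.84 cpm. A single MC903 library reached into the ethanol range, above its lowest library, and the log2 fold change was -0.49 ± 0.14, 0.711-fold (adjusted p = 0.035). The call held in 6 of 15 alternative fits and was lost in 7 of the 9 that leave out 1 library, with adjusted p up to 0.093 among those. Without the library that stood apart it was -0.52 ± 0.13 (adjusted p = 0.012).

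In the injected groups Npr1 showed no such difference. It ran from 6.25 through 6.60 to 9.08 cpm with MC903 and from 5.35 through 6.90 to 8.93 cpm with ethanol in aGr1 mice (log2 fold change +0.01, 95% interval -0.21 to 0.23), and was 7.24 and 5.04 cpm against 4.966 and 5.202 cpm in PBS mice. The difference between conditions was tested as an interaction. The MC903 effect on Npr1 was higher in aGr1 than in uninjected mice by 0.47 ± 0.17 log2 units (95% interval 0.13 to 0.81, adjusted p = 0.21) and higher in PBS than in uninjected mice by 0.72 ± 0.26 (0.17 to 1.28, adjusted p = 0.95), so neither difference passed after adjustment. No member passed in any of the 3 interactions by edgeR or DESeq2, and an unadjusted p under 0.05 was found for Npr1 in these 2 and for Oprk1 in the latter. Of all genes, 0.532% were called for aGr1 against no injection, 0% for aGr1 against PBS (edgeR 0, 1485 at an unadjusted p under 0.05, DESeq2 1) and 0.00367% for PBS against no injection. For Penk the interaction of aGr1 against no injection was -0.18 (95% interval -0.43 to 0.07).

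Oprk1, the kappa opioid receptor that dynorphin activates (plus strand, chr1:5588466-5606131), was higher with MC903 in uninjected mice without passing the test. Its levels were 15.4, 14.7, 14.1 and 13.4 cpm with MC903 and 10.2, 12.96, 11.5, 11.3 and 12.6 cpm with ethanol. The groups did not overlap, and the log2 fold change was +0.30 ± 0.09, 1.23-fold, with an adjusted p of 0.0556 just over the threshold. DESeq2 placed it under the threshold (adjusted p = 0.0045), as did the fit without ethanol replicate 1 (+0.28 ± 0.09, adjusted p = 0.038). In aGr1 mice Oprk1 ran from 11.5 through 16.9 to 22.8 cpm with MC903 and from 13.9 through 14.9 to 16.5 cpm with ethanol (+0.18 ± 0.10, adjusted p = 0.30), and the lowest library was MC903 replicate 6, without which it passed (+0.25 ± 0.08, adjusted p = 0.042). In PBS mice it was 18.3 and 22.2 cpm with MC903 and 21.98 and 20.9 cpm with ethanol.

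Tacr1, the substance P receptor carried by many spinal projection neurons (plus strand, chr6:82402334-82560104), had estimates below 0 in uninjected and aGr1 mice and about 0 in PBS mice, and was not called. In uninjected mice it was 12.4, 14.5, 14.6 and 11.6 cpm with MC903 and 15.6, 14.2, 16.1, 15.6 and 14.8 cpm with ethanol (-0.21 ± 0.11, adjusted p = 0.25). In aGr1 mice 7 of 8 MC903 libraries, at 17.96 to 18.8 cpm, were below the lowest ethanol library at 19.02 cpm, and the eighth was at 21.5 cpm (-0.09 ± 0.06, adjusted p = 0.34). In PBS mice the values were 20.1 and 19.8 cpm with MC903 against 19.1 and 20.1 cpm with ethanol. Over all 27 libraries the log2 fold change was -0.12 ± 0.05 (adjusted p = 0.065).

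Grpr and Nmbr, the receptors for gastrin-releasing peptide (chrX:163513904-163549677) and neuromedin B (chr10:14705591-14770850), rested on few counts. Grpr had 1 to 58 counts per library in uninjected cord and Nmbr 28 to 97. Grpr was 0.596 to 1.15 cpm with MC903 and 0.029 to 1.16 cpm with ethanol in uninjected mice (log2 fold change +0.40, 95% interval -0.75 to 1.54), and the low end is the single count of the library that stood apart. In PBS mice Grpr was 1.64 and 2.16 cpm with MC903, below 2.19 and 2.57 cpm with ethanol (-0.34 ± 0.26, adjusted p = 0.85). In aGr1 mice the 95% intervals ran from -0.17 to 0.35 for Grpr and from -0.25 to 0.53 for Nmbr. Differences within those bounds are compatible with the data for both receptors. Without the uninjected library that stood apart, the log2 fold changes not given above were +0.09 for Grpr, +0.10 for Nmb, +0.08 for Nmbr, -0.16 for Tacr1, -0.13 for Tac2 and -0.02 for Pdyn, and none passed (edgeR).

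**Figure D2:**
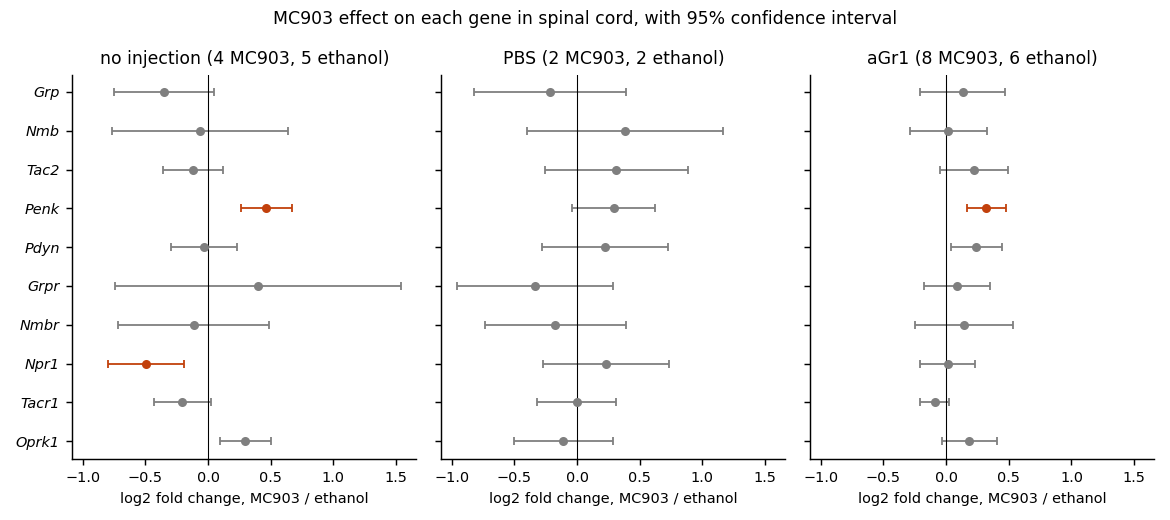
Points are log2 fold changes of MC903 over ethanol (horizontal axis, the same in each panel) for each gene in spinal cord, bars are 95% confidence intervals, and orange marks genes with an adjusted p under 0.05. Penk lies to the right of 0 in all 3 conditions, with intervals that exclude 0 in uninjected and aGr1 mice, and Npr1 lies to the left in uninjected mice alone.

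Markers of other cell types moved with MC903 in the same cords. All 8 of 8 microglia markers were lower in uninjected and in aGr1 mice, with summed levels of 167 to 250.0 cpm against 362 to 397 cpm and of 179.5 to 291 cpm against 309 to 342 cpm. Of 8 oligodendrocyte markers 6 were lower in each (24615 to 30535 cpm against 32045 to 38894 cpm, and 21052 to 25691 cpm against 26188 to 30952 cpm), and of 8 astrocyte markers 4 were lower and 1 higher in uninjected mice and 4 lower and 2 higher in aGr1 mice. Of 8 meningeal fibroblast markers 7 were lower in uninjected and 2 in aGr1 mice, and of 8 Schwann cell and satellite glia markers 4 and 3. The Schwann cell and satellite glia sums did not overlap in any condition, at 6512 to 8099 cpm with MC903 against 12072 to 16525 cpm with ethanol in uninjected mice, 2818 to 6490 cpm against 7461 to 9216 cpm in aGr1 mice and 6096 to 9409 cpm against 11033 to 11787 cpm in PBS mice. Sensory ganglion neuron markers had median log2 fold changes of 0.09 and 0.12, summed to 283 to 322 cpm against 264 to 314 cpm in uninjected mice and to 460.7 to 571.2 cpm against 506.8 to 571.4 cpm in aGr1 mice, where the MC903 median was the lower. Mrgprd, a defining one, lay at or under 3 counts in every cord library. Of 8 motor neuron markers 1 was lower in each. Of 10 red cell and neutrophil markers 2 were higher in aGr1 mice. In uninjected mice the sum of all 10 went the other way, with a median of 413 cpm (180.2 to 907 cpm) with MC903 against 969 cpm (600 to 1042 cpm) with ethanol. Genes that mark the segment of the cord also went with treatment in aGr1 mice: Hoxc8, of thoracic segments, averaged 64.4 cpm with MC903 and 84.9 cpm with ethanol, and lumbar-level Hox genes had a median sum of 26.5 cpm (10.7 to 68.4 cpm) against 13.5 cpm (5.78 to 46.3 cpm). In PBS mice, where no gene was called, microglia markers summed to 218 to 261 cpm against 304 to 315 cpm. The part of these markers and of the segment in the differences of Penk, Npr1 and Oprk1 was not tested.

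The level of the members also went with the injection condition. Hoxc8 averaged 165 and 171 cpm in the uninjected MC903 and ethanol groups and 64.4 to 84.9 cpm in the injected ones, and lumbar-level Hox genes summed to 3.37 to 20.4 cpm in uninjected cords against 29.5 to 58 cpm in PBS cords and 5.78 to 68.4 cpm in aGr1 cords. Over both treatments, Grp was 5.03 to 9.10 cpm in the 9 uninjected cords and at most 3.73 cpm in the 18 injected ones, without overlap. Grpr was the reverse, at most 1.16 cpm in uninjected and at least 1.51 cpm in injected cords. Pdyn averaged 7.28 ± 0.64 cpm (SD, n = 9) without injection, 10.5 ± 2.17 cpm (n = 4) with PBS and 13.8 ± 2.23 cpm (n = 14) with aGr1. Injection, segment and collection cannot be told apart in these groups, and no test between them was run.

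The other genes of these pathways were read from lists of fixed membership. Of 21 further peptide precursors tested in uninjected mice, 1 rose and 1 fell. Crh, the corticotropin-releasing hormone precursor, was 0.712 to 1.74 cpm with MC903 and 0.311 to 0.442 cpm with ethanol (+1.498 ± 0.34 on the log2 scale, adjusted p = 0.011). Sst, the somatostatin precursor of a class of dorsal horn interneurons, was 36.4 to 43.5 cpm against 44.6 to 55.5 cpm (-0.34 ± 0.09, adjusted p = 0.023). In aGr1 mice 3 of 22 rose: Crh (+2.19 ± 0.38), Adcyap1, the PACAP precursor (+0.40 ± 0.11), and Gal, the galanin precursor (+0.44 ± 0.14). Crh alone was called in both conditions, and all 4 uninjected MC903 values lay above the 5 ethanol values. The list's median log2 fold change was -0.10 and 0.07 in the 2 conditions.

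Of 32 further peptide receptors tested in uninjected mice, 1 rose and 4 fell. Galr2, a galanin receptor, was 1.05 to 1.24 cpm with MC903 and 0.578 to 0.696 cpm with ethanol (+0.88 ± 0.25, adjusted p = 0.033). Among those that fell were the endothelin receptors Ednra (-1.001 ± 0.17) and Ednrb (-0.37 ± 0.07) and the neurotensin receptor Ntsr2 (-0.44 ± 0.10). The same 3 receptors fell in aGr1 mice, by -0.42 ± 0.11, -0.38 ± 0.05 and -0.20 ± 0.05, where 2 of 31 rose: Nmur2, the neuromedin U receptor (+0.38 ± 0.09), and Oprl1, the nociceptin receptor (+0.16 ± 0.05). Ednra is known from vessels, and Ednrb and Ntsr2 are known from astrocytes. The median was -0.13 in uninjected and 0.03 in aGr1 mice.

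Of 26 dorsal horn interneuron genes tested, 2 rose and 2 fell in uninjected mice, and 3 rose in aGr1 mice. Calb2, which encodes calretinin, rose in both, from 153 ± 7.81 cpm (SD, n = 5) in ethanol to 188 ± 5.82 cpm (n = 4) in MC903 libraries of uninjected mice (+0.29 ± 0.07, adjusted p = 0.016) and by +0.23 ± 0.06 in aGr1 mice. Rora also rose in uninjected mice (+0.45 ± 0.13), while Maf (-0.33 ± 0.09) and the carbonic anhydrase gene Car12 (-1.26 ± 0.24) fell. Pax8, a transcription factor gene (+0.23 ± 0.07), was also among those that rose in aGr1 mice. The list's median was -0.03 and 0.10.

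Activity-induced genes, transcribed within minutes to hours of neuronal firing, held the most calls. Of 25, 10 rose and 1 fell in uninjected mice, and 6 rose and 1 fell in aGr1 mice, with medians of 0.39 and 0.20. Some of these genes were singled out by the study in these libraries, so the counts are not independent evidence of a direction. Dusp1, a phosphatase that ends kinase signaling, was 39.0 to 48.2 cpm with MC903 and 14.99 to 26.03 cpm with ethanol in uninjected mice (+1.16 ± 0.16, adjusted p = 0.00036) and rose by +0.47 ± 0.10 in aGr1 mice. Btg2 rose in both (+0.90 ± 0.17 without injection and +0.37 with aGr1), as did Nptx2 (+0.71 and +0.50 ± 0.12). Sik1 rose in uninjected mice (+0.84 ± 0.15) and did not pass in aGr1 mice (+0.20), and Egr1 rose in aGr1 mice (+0.57 ± 0.11) and did not pass in uninjected mice (+0.40). Neither Sik1 nor Egr1 was called in the interaction of aGr1 minus no injection. Arc, whose product acts at synapses, went the other way in both, from 9.20 ± 2.17 cpm in ethanol to 4.55 ± 1.001 cpm in MC903 libraries (-1.01 ± 0.18) and by -0.87 ± 0.13 in aGr1 mice. For Nr4a1 the effect differed between conditions, with an interaction of aGr1 minus no injection of -1.19 ± 0.25 (adjusted p = 0.029).

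Of 17 genes for peptide processing and secretory granules, 2 rose and 1 fell in uninjected mice and 4 rose in aGr1 mice. Scg2, a granin of dense-core vesicles, was 319 to 344 cpm with MC903 and 228 to 266 cpm with ethanol in uninjected mice (+0.38 ± 0.06, adjusted p = 0.0011), and Scg5, a chaperone of a prohormone convertase, 165 to 222 cpm against 122.4 to 150.6 cpm (+0.60 ± 0.10). Both rose in aGr1 mice as well (+0.25 ± 0.06 and +0.32 ± 0.07), with Cpe, the carboxypeptidase that trims peptide precursors (+0.21 ± 0.04). Anpep, an aminopeptidase that breaks enkephalins down, fell in uninjected mice (-1.28 ± 0.26). The list's median was 0.06 in uninjected and -0.0015 in aGr1 mice, near that of all genes.

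**Figure D3:**
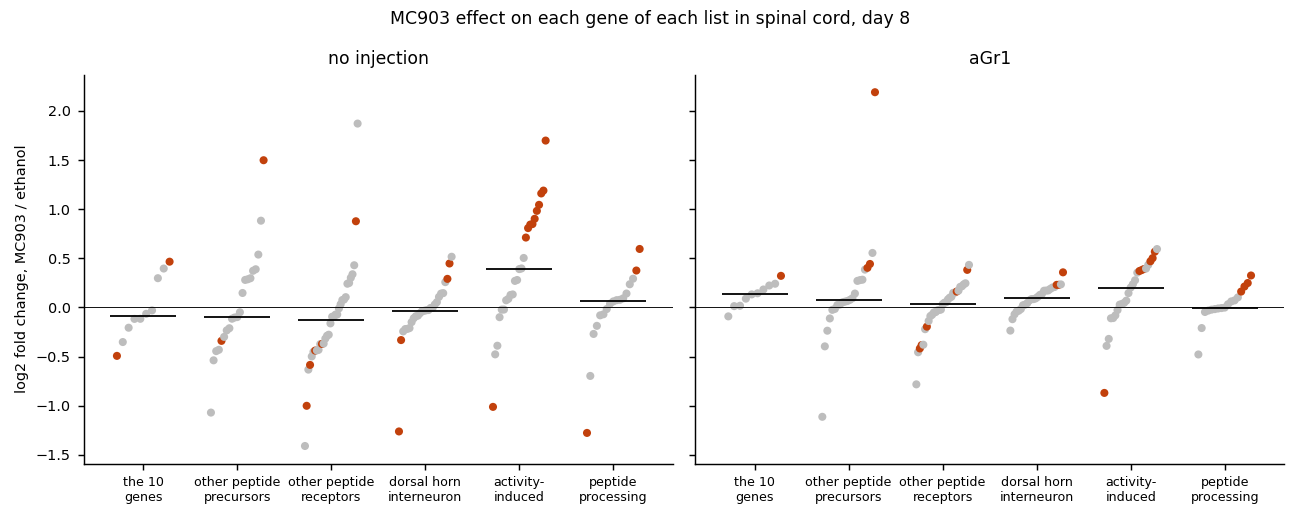
Each point is a gene, placed by its log2 fold change of MC903 over ethanol in spinal cord (vertical axis), grouped by list (horizontal axis), with orange for an adjusted p under 0.05 and a black line at the list's median. The medians of the 10 genes lie at -0.09 and 0.14, and the activity-induced genes have the highest, 0.39 without injection and 0.20 with aGr1.

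In TG the member that passed was Nmb, which itch afferents use to signal to the cord. In PBS-injected mice it was 66.6, 56.7, 61.3 and 52.2 cpm with MC903 and 45.2, 48.8 and 47.4 cpm with ethanol. The groups did not overlap, though the share of all genes for which this held was not computed in TG. The log2 fold change was +0.32 ± 0.08 (1.25-fold, adjusted p = 0.054, under the threshold of 0.1 that the study used in TG). It passed in 7 of 12 alternative fits and in 2 of the 7 that leave out 1 library. In aGr1 mice Nmb was 66, 57.5, 64.7 and 66.4 cpm with MC903 and 52.8, 51.9, 56.6 and 58.9 cpm with ethanol, overlapping in 1 library, and did not pass (+0.22 ± 0.09, adjusted p = 0.29).

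The estimate for Nmb was above 0 in all 8 TG comparisons, from 0.01 to 0.60. In TSLPR.KO mice at day 12 it was 70.1, 58.5, 63.5 and 70.9 cpm with MC903 and 54.6, 51.5, 53.1 and 59.9 cpm with ethanol (+0.29 ± 0.08, adjusted p = 0.37). There the replicate numbers paired the libraries, and with the replicate block the adjusted p was 0.071, under the threshold. In TSLPR.KO at day 8 it was 17.8 and 18.04 cpm against 12.7 and 14.7 cpm (+0.46 ± 0.22, adjusted p = 0.62). In uninjected wild-type mice the day 8 libraries held 20.6, 16.9, 13.2, 15.5 and 17.4 cpm with MC903 and 13.2, 14.6, 14.6, 8.002 and 13.2 cpm with ethanol (+0.39 ± 0.15, adjusted p = 0.70), +0.43 ± 0.16 in cohort A and +0.36 ± 0.23 in cohort B, and +0.28 ± 0.12 without the library that stood apart. Day 1 (+0.01 ± 0.23), day 2 (+0.13 ± 0.28) and day 5 (+0.60 ± 0.27) did not pass either. At day 2, without ethanol replicate 2, it passed (+0.73 ± 0.21, adjusted p = 0.053), in a fit with 1 ethanol library left, whose spread comes from the MC903 libraries alone. At day 5 the highest value, 36.9 cpm, came from MC903 replicate 1, which stood apart.

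A single fit over the 56 TG libraries, chosen after seeing the data, with day, injection, genotype and cohort as a term, gave +0.30 ± 0.07 for Nmb (1.23-fold, adjusted p = 0.0067), and +0.28 ± 0.07 without ethanol replicate 1 of day 1 and ethanol cohort B replicate 2 of day 8. It shares every library with the comparisons above. MC903 replicates 1 of day 1 and of day 5, which deviated most in TG, were kept in both of these fits, so their weight in the estimate was not tested. Nmb was the only member called there, against 5.8% of genes. Sensory neuron markers as a sum ran from 5544 to 6331 cpm with MC903 and from 5343 to 5456 cpm with ethanol in PBS mice, without overlap, and their part in the Nmb difference was not tested. The level of Nmb fell into 2 ranges that went with the group: 8.002 to 36.9 cpm in uninjected wild-type mice and in TSLPR.KO at day 8, and 45.2 to 70.9 cpm in PBS, aGr1 and TSLPR.KO at day 12.

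**Figure D4:**
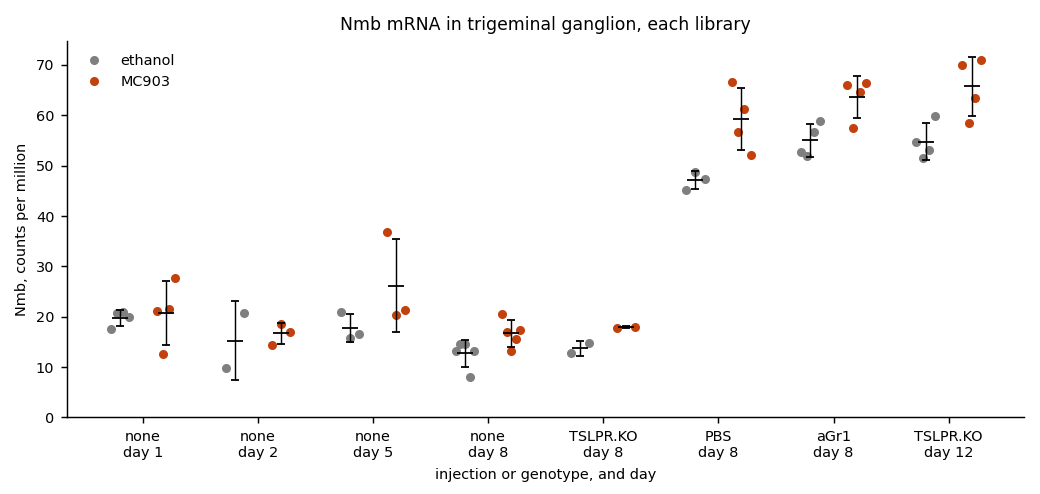
Nmb in TG in cpm (vertical axis) for each library (points, grey ethanol and orange MC903) with mean and SD (bars), by injection, genotype and day (horizontal axis). The mean is higher with MC903 in all 8 groups, and the groups on the right, PBS, aGr1 and TSLPR.KO day 12, lie at 45.2 to 70.9 cpm, above all others.

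For the other members no TG comparison passed. In uninjected wild-type mice 0 members were called by edgeR at days 1, 2, 5 and 8, where 0%, 0%, 0.00823% and 0.16% of genes were called, and 2 members at day 1 (Pdyn and Oprk1), 0 at days 2 and 5 and 1 at day 8 (Nmb) had an unadjusted p under 0.05. DESeq2 called no member on those days. In PBS, aGr1 and TSLPR.KO at days 8 and 12, 1, 0, 0 and 0 members were called, against 3.36%, 1.88%, 0% and 0.304% of genes, and DESeq2 called 1, 1, 0 and 0. At the days with 0% of genes called, edgeR had 2034, 1527 and 1886 genes at an unadjusted p under 0.05 for day 1, day 2 and TSLPR.KO day 8, and DESeq2 called 50, 59 and 150.

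Oprk1 in TG came closest. In aGr1 mice it was 5.75, 10.6, 6.64 and 6.94 cpm with MC903 and 5.29, 4.99, 3.41 and 4.89 cpm with ethanol. The groups did not overlap, and the log2 fold change of +0.70 ± 0.20 had an adjusted p of 0.14, while DESeq2 placed it at 0.049. In PBS mice the estimate was -0.11 ± 0.13, with 6.14 to 9.17 cpm against 7.61 to 8.54 cpm. Over the 8 groups its estimates ran from -1.06 to 0.70, the lowest at day 1. In TSLPR.KO at day 8 Oprk1 was lower with MC903 without overlap, at 3.70 to 6.45 cpm against 6.58 to 7.22 cpm. Other members also separated in TG in both directions without passing. Examples are Nmbr, lower with aGr1 (0.041 to 0.158 cpm against 0.1905 to 0.306 cpm), and Grpr, higher at day 5 (0.437 to 0.700 cpm against 0.302 to 0.430 cpm).

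At day 1 several members were high in ethanol replicate 1. It held 17.2 cpm of Pdyn, where the other 3 ethanol libraries held 0.191 to 0.333 cpm, and 26.3 cpm of Oprk1, where they held 7.64 to 11.1 cpm. Without it the log2 fold change of Pdyn went from -3.53 ± 1.496 to +0.55 ± 0.89 and that of Oprk1 from -1.06 ± 0.44 to -0.52 ± 0.34, none of them past the threshold. Penk at day 1 was 9.05 to 21.4 cpm with MC903 and 1.43 to 17.3 cpm with ethanol (+0.97 ± 0.59), +1.85 ± 0.47 without that library (adjusted p = 0.62), and oligodendrocyte markers summed to 6530 to 19177 cpm against 3041 to 7677 cpm in the same libraries. Their part in the Penk difference was not tested.

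Across tissues the circuit genes belonged to the cord, except Nmb. Among ethanol libraries of day 8 in uninjected mice, 8 members were higher in cord and 1 lower, against 39.2% of genes called in either direction, and in PBS and aGr1 mice 9 were higher and 1 lower, against 61.1% and 64.2%. Nmb was lower in cord by 3.94 ± 0.28, 5.35 ± 0.12 and 5.17 ± 0.09 log2 units without injection, with PBS and with aGr1. It averaged 12.7 ± 2.72 cpm (SD, n = 5) in TG and 0.825 ± 0.31 cpm (n = 5) in cord of uninjected mice. Grpr was the member that did not pass in uninjected mice (+0.66 ± 0.65, adjusted p = 0.46), at 0.610 ± 0.40 cpm in cord and 0.372 cpm on average in TG, and it was higher in cord in PBS (+1.503 ± 0.25) and aGr1 mice (+1.82 ± 0.27). Leaving out any single library kept the number of members called at 9, 10 and 10. Cord mice were treated on the back and TG mice on the cheek, so tissue and treated site cannot be told apart.

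The contrast was steepest for Tac2. Its 6 aGr1 ethanol cords held 3807 counts together and the 4 TG libraries held 0, so it was at least 642-fold higher in cord, taking 3 counts over the group as the floor. In uninjected and PBS mice TG held 5 and 2 counts together, against 4495 and 868 in cord. Grp was higher in cord by 6.48 ± 0.52 log2 units in uninjected mice and Penk by 5.52 ± 0.59, followed by Tacr1 (+4.79 ± 0.18), Pdyn (+4.60 ± 0.63) and Nmbr (+3.63 ± 0.71). Npr1 (+1.21 ± 0.17) and Oprk1 (+0.77 ± 0.18) differed least among those called, and both were read in every TG library, with at least 31 and 67 counts.

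Per length of transcript, the levels in the 13 ethanol cords fell in a clear order at the top and a close one below. Penk averaged 63.1 ± 9.16 cpm per kb of exon (SD, n = 13) and Tac2 17.2 ± 5.02, and each was above the next gene in all 13 libraries with no overlap of ranges. Pdyn (3.48 ± 1.01), Grp (2.92 ± 1.59) and Tacr1 (2.79 ± 0.39) overlapped. The order of Pdyn and Grp went with the injection condition: Grp was above Pdyn in all 5 uninjected libraries, with means of 4.67 and 2.54 cpm per kb, and Pdyn was above Grp in all 8 injected libraries, with means of 4.07 and 1.83. Oprk1 (1.61 ± 0.38), Nmb (1.55 ± 0.54) and Npr1 (1.37 ± 0.24) followed and overlapped as well. Grpr (0.585 ± 0.31) and Nmbr (0.568 ± 0.15) were the lowest, and their order also went with the condition. Nmbr was above Grpr in all 5 uninjected libraries (0.541 and 0.242), and Grpr was above Nmbr in all 8 injected libraries (0.799 and 0.584). In the 56 TG libraries the order began with Nmb at 43.2 ± 26.4 cpm per kb, followed by Penk at 2.40 ± 2.57, and Grp, Tac2 and Nmbr lay at or under 3 counts in 38, 45 and 26 of the libraries.

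**Figure D5:**
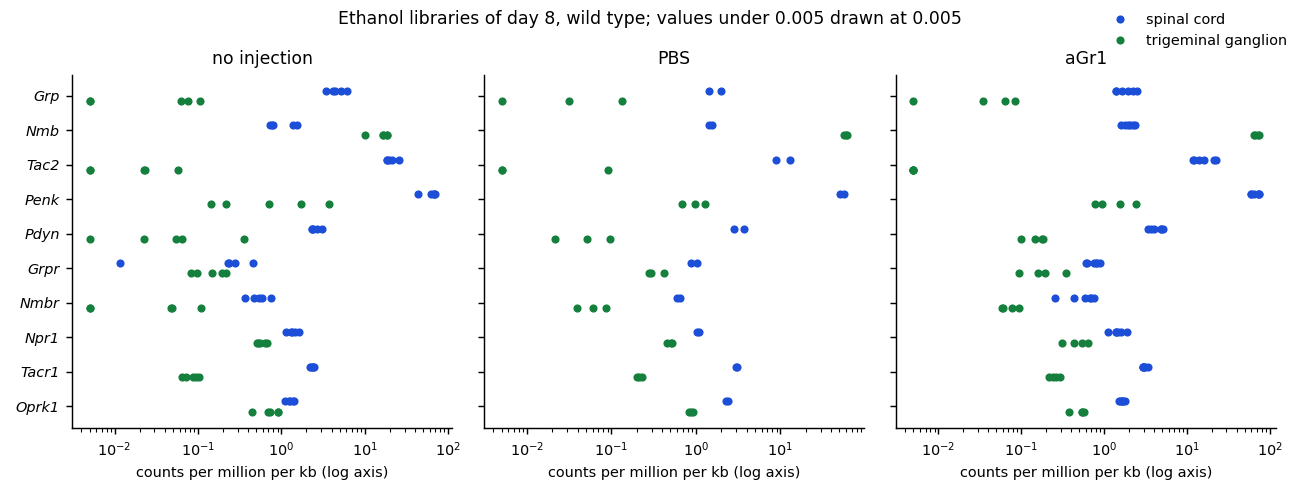
Level of each gene per length in ethanol libraries of day 8, in cpm per kb of exon on a log axis, with spinal cord in blue and TG in green and 1 panel per injection condition. Libraries at or close to 0 are drawn at the left edge. Nmb is the gene whose green points lie to the right of the blue ones, and Penk and Tac2 are the highest in cord.

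Genes whose level followed the members from library to library were sought over the 27 cords, as Pearson r on log2(cpm + 0.5) after the mean of each of the 6 groups was taken off, among at least 12693 genes averaging at least 5 cpm. The points share cords, depth and composition, so r is a description. Where leaving out uninjected ethanol replicate 1, which stood apart, moved r by over 0.1, r over the other 26 cords is given too. Penk was followed most closely by Slc6a17 (r = 0.92), Nrsn2 (0.91) and Gsg1l (0.88, 0.78 without that library), and Pdyn by Nsg2 (0.88), Camk2a (0.88) and Psd (0.84). Slc6a17 is a vesicular transporter of neurons and Camk2a a kinase of excitatory synapses. Tac2 went with 6330403K07Rik (0.88), Kcnc4 (0.84) and Nsg2 (0.83), Oprk1 with Trim23 (0.93), Rgs17 (0.91) and Zfp788 (0.91), and Npr1 with Dlg5 (0.88), Tmem164 (0.88) and Ptpru (0.87).

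Grp was followed by Oxtr (0.79), the oxytocin receptor, Cbln1 (0.76) and Hoxa9 (0.74), Nmb by Psph (0.76), Fah (0.73) and Rpl5-ps2 (0.72), Nmbr by Kif9 (0.78), Otub2 (0.73) and Pik3cd (0.71), and Tacr1 by Tmem229b (0.70), Gm37625 (0.67) and Ptger4 (0.66). For Grpr the values rested in part on the library that stood apart: they were 0.87 for Fam20b, 0.86 for Gsg1l and 0.84 for Xpnpep3 with it and 0.66, 0.65 and 0.61 without it. Between members, the highest r were 0.76 for Tac2 with Pdyn, 0.73 for Pdyn with Penk (0.87 without that library) and 0.69 for Grpr with Penk (0.39 without it). Next were Npr1 with Penk (0.64) and Tac2 with Penk (0.60). For Grp with Penk r was 0.16 (0.57 without that library). The lowest r was -0.31, for Pdyn with Oprk1, and Penk with Oprk1 was at -0.19 (-0.49 without that library). Grpr and Nmb rest on few counts, which limits r for both.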

How the data were processed

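Gene counts of 162 mouse libraries (poly(A) RNA, single-end reads, 46078 genes each) were deposited by the authors, who aligned the reads to mm10 with TopHat and Bowtie2 and counted reads per gene with htseq-count. These raw counts are not normalized, and 5 tally lines per file were left out (6.15% to 21.5% of a library's reads for those with no feature). Symbols came from GENCODE M21 (45229 identifiers matched, 849 not). No value column was left unused.

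Levels were computed as CPM, with each library's total over genes as the base. Cord libraries held 21595429 to 50591655 counts and TG libraries 15931871 to 62105901. Each comparison was fitted with edgeR 4.0.16 in R 4.3.3 (TMM, quasi-likelihood F test, genes with at least 10 counts in all) with Benjamini-Hochberg adjustment over all genes, and called at an adjusted p under 0.05 in cord and between tissues and 0.1 in TG, the study's thresholds. SE is the size of the log2 fold change over the square root of F. Every adjusted p is from edgeR unless DESeq2 (1.42.0) is named. The labels do not say that libraries are separate animals beyond their replicate numbers, so p-values measure the spread between libraries. Simulated data with known changes were used to test the fits.

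The 10 genes and all gene and marker lists were chosen with earlier results of these data known. Named genes were the 10 members, up to 3 genes per list and direction with the smallest p among those called in cord, and the 3 genes with the highest r with each member. Fits over all injections or all TG groups, codes L to U alone, the crossed block and r without 1 library were chosen after seeing the data. Replicate numbers paired the libraries, by the correlation of their deviations over genes, only in TG day 5 (r from 0.23 to 0.44 in 3 pairs) and TSLPR.KO day 12 (0.28 to 0.68 in 4 pairs). No table of protein sequences was used here, and 1 gene past the threshold and 1 coding unit are not reported here.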

Additional observations from a re-analysis of the deposited data

Results flagged for a closer look

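Of 130 combinations of a gene and a group of 4 to 10 libraries, 11 held a library set apart from the rest of its group by Dixon's ratio, where chance gives about 1 in 20, or 6.5. In TG at day 1, ethanol replicate 1 was the highest in 4 genes: Pdyn at 17.2 cpm (others 0.191 to 0.333 cpm), Tac2 at 2.803 cpm (0.0554 to 0.0956 cpm), Tacr1 at 3.957 cpm (0.277 to 0.842 cpm) and Nmbr at 1.429 cpm (0 to 0.111 cpm). In TG at day 8, uninjected ethanol cohort B replicate 2 was the lowest in Nmb at 8.002 cpm (13.2 to 14.6 cpm) and the highest in Pdyn at 1.026 cpm (0 to 0.184 cpm), and it was also the library low in Crlf2.

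In spinal cord, uninjected ethanol replicate 1 was the lowest in Penk at 70.24 cpm (102.2 to 113.9 cpm). With aGr1, Tacr1 was high in MC903 replicate 5 at 21.52 cpm (17.96 to 18.8 cpm) and in ethanol replicate 6 at 22.29 cpm (19.02 to 20.1 cpm). Tac2 was found at 0.5161 cpm (17 counts) in TG MC903 cohort B replicate 1 of day 8 and at 0.05272 cpm (1 count) in TG aGr1 MC903 replicate 1, with 0 counts in the other libraries of both groups.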

How the results depend on the processing

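Over 269 alternative fits, 2563 of 2593 values of the 10 genes kept their side of the threshold, 15 lost a call, 15 gained one and no called value changed direction. DESeq2 gave no adjusted p for 2 further values. In uninjected cord the number of members called was 1 (Penk) with no filter on low counts and 1 with the replicate block, in place of 2, since Npr1 was lost, and 3 with RLE size factors, with DESeq2 and with edgeR's default filter on low counts, since Oprk1 was gained (adjusted p = 0.0435, 0.0045 and 0.031). Between uninjected cord and TG it was 8 with DESeq2, in place of 9, since DESeq2 gave Penk no adjusted p. In aGr1 cord it was 0 in codes L to U alone, in place of 1. Over all injections it was 2 with RLE size factors and 2 with DESeq2 (Penk and Oprk1), in place of 1. In TG with aGr1 it was 1 (Oprk1) with DESeq2, with no filter and with the replicate block, in place of 0, and in TSLPR.KO day 12 it was 1 (Nmb) with the replicate block. Leaving out 1 library at a time gave 1 to 3 members in uninjected cord, 0 to 3 in PBS cord, 1 to 2 in aGr1 cord, 0 to 1 in TG day 2 and 0 to 1 in TG PBS, and leaving out 1 library changed no other count of members in the comparisons of MC903 with ethanol or between tissues. The cause of the other changes was not tested.

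Counts of all genes called moved by over 1.5 times as follows. With the replicate block, cord went from 3118 to 1747 without injection, from 3132 to 1992 with aGr1 and from 0 to 224 with PBS (955 when the numbers were crossed, and 0 members), TG PBS from 796 to 3479 and TSLPR.KO from 0 to 480 at day 8 and from 79 to 356 at day 12. The pairing by number held by the check only in TG day 5 (2 to 54) and TSLPR.KO day 12, and the block changed no other member's call. In 1 fit over all cord libraries the counts were 5668, 180 and 1834 for no injection, PBS and aGr1, and in codes L to U alone 913. DESeq2 called 766 in TG aGr1 (456), 224 in TSLPR.KO day 12 (79), 162 in TG day 8 (41), 44 in TG day 5 (2) and 354 for the interaction of aGr1 with no injection (153). With no filter the counts were 80 in cord PBS (0), 1271 in TG PBS (796), 177 in TG day 2 (0) and 1063 in TSLPR.KO day 8 (0). Few counts limit what can be read for Grpr, Nmb and Nmbr in cord and for Grp, Tac2, Nmbr and Pdyn in TG.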
